A study of Oryza sativa Indica Group with 18 samples.

Results

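The genes described here are 30 rice genes of cytokinin perception, signalling, activation and breakdown. They were chosen by a rule on names that uses no values, though with earlier results of these data known. A gene was taken where its RefSeq symbol or a synonym was LOG, or RR, CKX, LOGL, IPT, HK or PHP and a number. An Os prefix was allowed, and the array had to hold a probe set annotated to that gene only. By name 43 genes matched, and 30 of them had such a probe set, among 17905 genes with one on the array. The 30 genes were 13 response regulators (RR), 5 cytokinin oxidases (CKX), 8 genes of the LONELY GUY family (LOG and LOGL), 3 histidine kinases (HK) and 1 pseudo-phosphotransfer gene (PHP5). No gene named IPT, the enzyme that starts cytokinin synthesis, was matched. Genes matched by name but without such a probe set, which include CKX2, HK1, RR7, RR10 and LOGL8, were not analysed here.

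The samples were whole 7-day-old seedlings of 2 indica rice cultivars, Dagad deshi and IR20, raised hydroponically in a rice growth medium. Drought was imposed by moving seedlings from the medium onto filter paper sheets for 3 h or 6 h, and control seedlings stayed in the medium for 6 h. This gave 6 groups of 3 arrays, 18 arrays in all, with 1 control group for each cultivar that served both drought times. The arrays of a group were labelled as biological replicates, but whether each had its own culture was not labelled, so the p-values measure only the spread between these samples.

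Cytokinins are plant hormones that promote cell division and delay leaf senescence. They bind receptor histidine kinases, which pass a phosphate through phosphotransfer proteins to type-B response regulators, the transcription factors of the pathway. Type-B regulators switch on the genes of the type-A response regulators, which damp the signal and are widely read as its primary targets. LOG-type enzymes release the active hormone from its nucleotide precursor, and cytokinin oxidases break the hormone down irreversibly.

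Levels are given as the deposited intensity of a probe set, on a linear scale on which the array medians lay between 7.13 and 8.20. Differences are given on the scale log2(intensity + 16) with the standard error (SE) of a linear model fitted with limma, and a gene was called where the p-value, adjusted by the Benjamini-Hochberg method over the 40080 probe sets tested, was under 0.05. The added 16 understates the changes of dim genes. All 6 drought check genes, the RAB16B, RAB16C, RAB16D and RAB21 dehydrins, LEA3 and DIP1, rose in each cultivar at each time. The end index, which says how much brighter the 3' end than the 5' end of the control transcripts for cyclophilin, GAPDH and actin read, as an averaged log2 ratio, lay between 4.12 and 8.88 in the 6 control arrays and between 1.80 and 3.19 in the 12 drought arrays. The index thus moved with every comparison of drought with control, and a fit adjusted for it has no arrays between 3.19 and 4.12 to rest on. A call kept or lost in that fit, here and below, therefore does not separate drought from the index. Of the markers of seedling organs, the summed intensity of 2 leaf genes, RBCS and CAB2R, was 76909 to 79954 in Dagad deshi controls, 40339 to 45090.0 at 6 h in Dagad deshi, 65653 to 76871 in IR20 controls and 52377 to 62997 at 6 h in IR20. The summed intensity of 7 root genes was 4104 to 5544 in Dagad deshi controls, 5367 to 5995 at 6 h there, 7404 to 11721 in IR20 controls and 13513 to 16370 at 6 h in IR20, and their part in the results below was not tested. LSI1, at 2192 to 8947 over all arrays, weighed most in the root sum, and the root genes did not move together. From control to 6 h the group means of NAS1 and IRT1 fell in IR20 and those of the other root genes rose. In Dagad deshi those of LSI2, AMT1-2 and IRT1 fell and those of the others rose. In whole seedlings, fewer cells of a type and less RNA per cell cannot be told apart.

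Nearly all of these genes differed between drought and control. Of the 30 genes, 29 passed the filter on low values, and RR33, at an intensity of 4.03 to 4.31 on all arrays, did not. In Dagad deshi, 14 genes rose and 14 fell at 3 h, and 14 rose and 14 fell at 6 h. At both times the falls include CKX1 and RR41, which lay near the array medians on all arrays. Their changes there lay between -0.09 and -0.03. Of all probe sets tested, 70.9% were called at 3 h (23.6% higher and 47.3% lower) and 70.4% at 6 h (24.7% higher and 45.7% lower). In IR20, 13 rose and 11 fell at 3 h and 12 rose and 13 fell at 6 h, where 36.8% of all probe sets were called at 3 h (14.9% higher and 21.9% lower) and 45.8% at 6 h (20.4% higher and 25.5% lower). Since 70.9% and 70.4% of all probe sets moved in Dagad deshi, the counts alone say little there, and the direction and size within each class are described below. The 3 h and 6 h comparisons of a cultivar share their control arrays.

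**Figure D1:**
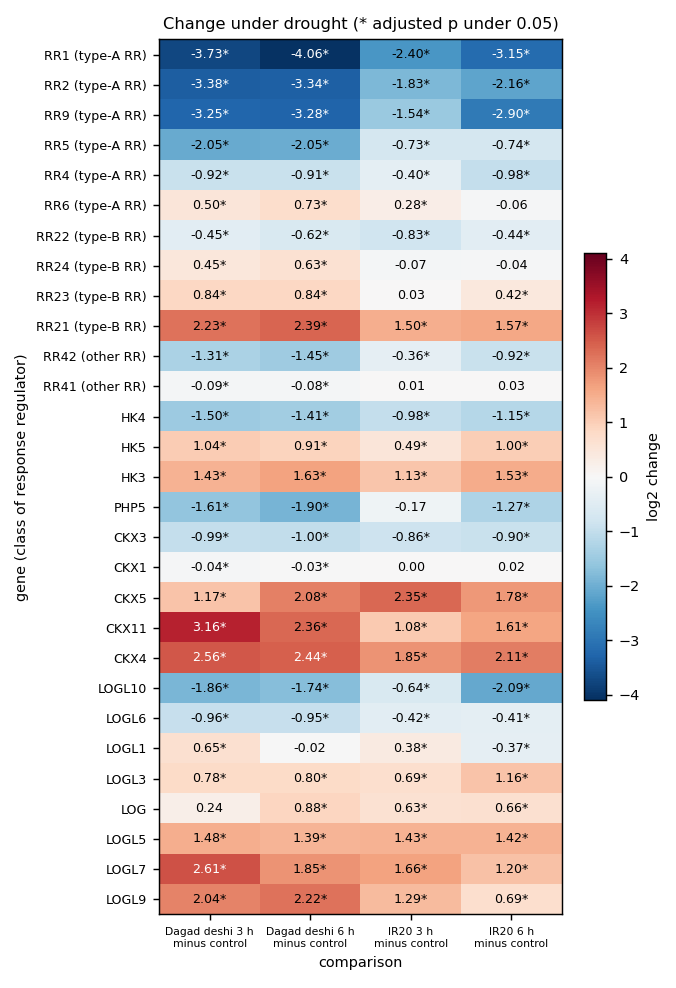
Colour and number give the log2 change of each of the 29 tested genes (rows, grouped by class) in the 4 comparisons of drought with control (columns), and a star marks an adjusted p under 0.05. RR1 at the top reached -4.06 at 6 h in Dagad deshi, and CKX11 reached 3.16 at 3 h.

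The type-A response regulators fell most. Of 6 such genes, 5 fell in each cultivar at each time, RR1, RR2, RR4, RR5 and RR9, and the median change over the 6 was -2.65 and -2.67 in Dagad deshi after 3 h and 6 h, and -1.13 and -1.57 in IR20, beside a median between -0.03 and 0.01 over all probe sets tested. RR1, which is known from crown root initiation, had intensities in Dagad deshi of 361, 421 and 416 in the controls, 14.3, 18.2 and 13.4 at 3 h and 9.43, 8.57 and 8.66 at 6 h. In IR20, RR1 stood at 204, 287 and 184 in the controls, 29.2, 29.2 and 28.5 at 3 h and 13.3, 9.52 and 9.41 at 6 h. Each drought array lay far below each control array of its cultivar, and at 6 h RR1 was close to the array medians. Its changes were in Dagad deshi -3.73 ± 0.13 after 3 h and -4.06 ± 0.13 after 6 h (adjusted p = 5.62e-12 and 2.04e-12), and in IR20 -2.40 ± 0.13 after 3 h and -3.15 ± 0.13 after 6 h (adjusted p = 2.41e-09 and 5.71e-11).

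RR2, a type-A regulator also expressed in developing crown roots, stood in Dagad deshi at 501, 464 and 456 in the controls, 30.03, 32.1 and 30.5 at 3 h and 32.3, 32.6 and 32.0 at 6 h. In IR20, RR2 stood at 266, 298 and 223 in the controls, 60.7, 71.3 and 53.6 at 3 h and 53.6, 47.7 and 37.0 at 6 h. The 6 drought arrays of Dagad deshi kept within a narrow band, below every drought array of IR20, although the Dagad deshi controls were the higher ones. The changes of RR2 were in Dagad deshi -3.38 ± 0.12 after 3 h and -3.34 ± 0.12 after 6 h (adjusted p = 8.86e-12 and 8.97e-12), and in IR20 -1.83 ± 0.12 after 3 h and -2.16 ± 0.12 after 6 h (adjusted p = 2.36e-08 and 1.83e-09).

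RR9 shares most of its sequence with RR10, which had no probe set of its own here, so its signal may hold both transcripts. In Dagad deshi, RR9 stood at 799, 908 and 876 in the controls, 72.9, 86.3 and 69.6 at 3 h and 75.2, 75.2 and 71.2 at 6 h. In IR20, RR9 stood at 1128, 1144 and 1231 in the controls, 406, 360.4 and 411 at 3 h and 164, 133 and 131 at 6 h. In Dagad deshi the 3 h and 6 h arrays overlapped, whereas in IR20 all 6 h arrays lay below all 3 h arrays. The changes were in Dagad deshi -3.25 ± 0.09 after 3 h and -3.28 ± 0.09 after 6 h (adjusted p = 7.15e-13 and 5.36e-13), and in IR20 -1.54 ± 0.09 after 3 h and -2.90 ± 0.09 after 6 h (adjusted p = 6.73e-09 and 3.79e-12).

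RR5 was dim already in the controls. In Dagad deshi, RR5 stood at 100.4, 53.3 and 73.6 in the controls, 5.72, 5.54 and 5.65 at 3 h and 5.86, 5.73 and 5.60 at 6 h. In IR20, RR5 stood at 21.0, 14.7 and 25.0 in the controls, 5.73, 5.65 and 5.71 at 3 h and 5.61, 5.64 and 5.53 at 6 h. All 12 drought arrays lay between 5.53 and 5.86, below the array medians, so the changes of RR5, in Dagad deshi -2.05 ± 0.13 after 3 h and -2.05 ± 0.13 after 6 h (adjusted p = 5.12e-09 and 4.9e-09), and in IR20 -0.73 ± 0.13 after 3 h and -0.74 ± 0.13 after 6 h (adjusted p = 0.000492 and 0.000325), are lower bounds of its fall. RR4, whose probe set carries the _s_at suffix for probes that can bind several transcripts, changed less, by -0.92 and -0.91 in Dagad deshi and -0.40 and -0.98 in IR20. RR6 went the other way from the rest of its class. It rose by 0.50 ± 0.07 (adjusted p = 8.97e-06) at 3 h and by 0.73 ± 0.07 (adjusted p = 1.54e-07) at 6 h in Dagad deshi and by 0.28 ± 0.07 (adjusted p = 0.00353) at 3 h in IR20, and its change at 6 h in IR20 was -0.06 ± 0.07 (adjusted p = 0.448). After adjustment for the end index, the 5 falling genes were still called in each comparison, with RR1 at -3.49 after 3 h and -3.82 after 6 h in Dagad deshi, and at -2.28 and -3.01 in IR20. As given above, that fit cannot separate drought from the index.

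**Figure D2:**
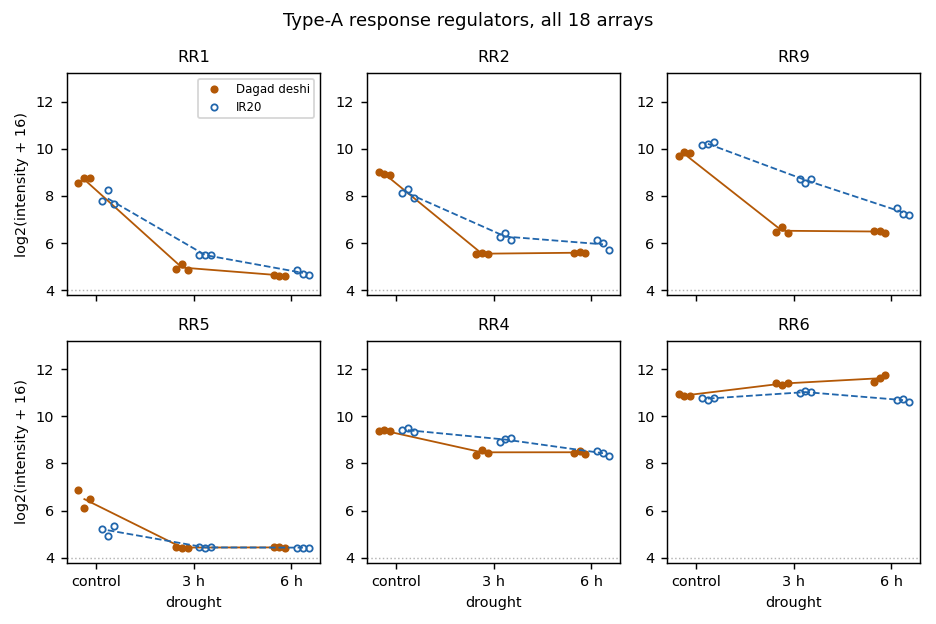
Each panel plots log2(intensity + 16) of 1 type-A response regulator (vertical axis) in the control, 3 h and 6 h arrays (horizontal axis), with filled points and solid lines for Dagad deshi and open points and dashed lines for IR20. Points are single arrays, lines join the means of 3 arrays, and the dotted line at 4 is the floor of the scale. RR1, RR2, RR9, RR5 and RR4 fell in both cultivars, and RR6 did not.

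The receptors did not move as a group. HK3 and HK5 rose and HK4 fell, in both cultivars and at both times. HK3, a receptor with an extracellular cytokinin-binding domain, had intensities in Dagad deshi of 2140.4, 1665 and 1788 in the controls, 5150.4, 4660.2 and 5293 at 3 h and 6386, 5337 and 5688 at 6 h. In IR20, HK3 stood at 1937, 2282 and 2204 in the controls, 4661, 4701 and 4757 at 3 h and 5958, 6134 and 6467 at 6 h. Control and drought arrays did not overlap in either cultivar. The changes of HK3 were in Dagad deshi 1.43 ± 0.09 after 3 h and 1.63 ± 0.09 after 6 h (adjusted p = 4.09e-09 and 8.54e-10), and in IR20 1.13 ± 0.09 after 3 h and 1.53 ± 0.09 after 6 h (adjusted p = 1.65e-07 and 3.2e-09).

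HK4, a receptor of the same family, stood in Dagad deshi at 496, 372 and 448 in the controls, 154, 139 and 138 at 3 h and 157, 157 and 148 at 6 h. In IR20, HK4 stood at 444, 504 and 589 in the controls, 275, 273 and 209 at 3 h and 223, 225 and 213 at 6 h. All drought arrays lay below all controls, and those of Dagad deshi lay below those of IR20. The changes of HK4 were in Dagad deshi -1.50 ± 0.12 after 3 h and -1.41 ± 0.12 after 6 h (adjusted p = 5.95e-08 and 1.14e-07), and in IR20 -0.98 ± 0.12 after 3 h and -1.15 ± 0.12 after 6 h (adjusted p = 1.37e-05 and 1.53e-06).

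HK5, also of this family, stood in Dagad deshi at 1434, 928 and 938 in the controls, 2319.7, 2219 and 2175 at 3 h and 2108, 1753 and 2296 at 6 h. In IR20, HK5 stood at 876, 1035 and 955 in the controls, 1363, 1319 and 1359 at 3 h and 1891, 2025 and 1844 at 6 h. The 3 h arrays of IR20 lay between its control and 6 h arrays, while 1 control array of Dagad deshi, replicate 1, stood above the other two. The changes of HK5 were in Dagad deshi 1.04 ± 0.14 after 3 h and 0.91 ± 0.14 after 6 h (adjusted p = 1.01e-05 and 3.88e-05), and in IR20 0.49 ± 0.14 after 3 h and 1.00 ± 0.14 after 6 h (adjusted p = 0.0102 and 2.12e-05). This probe set can bind several transcripts. A second probe set of HK5 changed by more, by 2.28 and 2.42 in Dagad deshi after 3 h and 6 h, and by 0.98 and 1.77 in IR20, and rose in each case (adjusted p = 1.12e-07, 5.48e-08, 0.000977 and 2.55e-06).

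Between receptors and regulators stand the phosphotransfer proteins. PHP5 belongs to the pseudo-phosphotransfer proteins, which lack the histidine that carries the phosphate and whose Arabidopsis counterpart dampens the relay. In Dagad deshi, PHP5 stood at 782, 534 and 619 in the controls, 239, 167 and 192 at 3 h and 178, 139 and 160.1 at 6 h. In IR20, PHP5 stood at 444, 532 and 535 in the controls, 478, 465 and 393 at 3 h and 202, 197 and 198 at 6 h. In IR20 the 3 h arrays overlapped the controls, and the fall appeared at 6 h. The changes of PHP5 were in Dagad deshi -1.61 ± 0.15 after 3 h and -1.90 ± 0.15 after 6 h (adjusted p = 1.8e-07 and 2.68e-08), and in IR20 -0.17 ± 0.15 after 3 h and -1.27 ± 0.15 after 6 h (adjusted p = 0.466 and 3.38e-06). The true phosphotransfer genes AHP1 and AHP2, which are not among the 30, rose in all 4 comparisons. AHP1 changed by 2.57 and 2.56 in Dagad deshi and by 0.97 and 1.31 in IR20 (adjusted p = 4.34e-07, 4.33e-07, 0.00623 and 0.000476). This probe set of AHP1 can bind several transcripts, and its other probe set rose less in each comparison. There the mean log2 values at control, 3 h and 6 h were 9.04, 10.91 and 10.85 in Dagad deshi. In IR20 they were 9.58, 10.075 and 10.67. AHP2 changed by 1.17 and 0.95 in Dagad deshi and by 0.60 and 0.74 in IR20 (adjusted p = 1.25e-10, 1.18e-09, 5.67e-07 and 2.85e-08).

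Of the 4 type-B response regulators, 3 rose and 1 fell in Dagad deshi at both times, with a median change of 0.64 at 3 h and 0.74 at 6 h. In IR20, 1 rose and 1 fell at 3 h and 2 rose and 1 fell at 6 h, with a median of -0.02 and 0.19. RR21 rose most. In Dagad deshi, RR21 stood at 1600.2, 1450.1 and 1099 in the controls, 6404, 6443 and 6597 at 3 h and 7606, 6440.1 and 7713 at 6 h. In IR20, RR21 stood at 2107, 1872 and 2484 in the controls, 6067, 6377 and 5788 at 3 h and 6165, 6509 and 6498 at 6 h. The drought arrays of the cultivars overlapped, and the IR20 controls lay above those of Dagad deshi. The changes of RR21 were in Dagad deshi 2.23 ± 0.12 after 3 h and 2.39 ± 0.12 after 6 h (adjusted p = 6.96e-10 and 2.94e-10), and in IR20 1.5 ± 0.12 after 3 h and 1.57 ± 0.12 after 6 h (adjusted p = 1.76e-07 and 5.22e-08).

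RR23 rose in Dagad deshi from 315, 319 and 288 in the controls to 580.2, 549.9 and 552 at 3 h and 548, 514 and 632 at 6 h. In IR20, RR23 stood at 301, 349 and 325 in the controls, 306, 367 and 326 at 3 h and 460.1, 401 and 458 at 6 h. The 3 h arrays of IR20 overlapped its controls and the 6 h arrays did not. The changes of RR23 were in Dagad deshi 0.84 ± 0.09 after 3 h and 0.84 ± 0.09 after 6 h (adjusted p = 1.04e-06 and 9.49e-07), and in IR20 0.03 ± 0.09 after 3 h and 0.42 ± 0.09 after 6 h (adjusted p = 0.889 and 0.00117).

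RR22, whose loss is known to give rice seedlings salt tolerance, was the falling member of the class. In Dagad deshi, RR22 stood at 973, 726 and 762 in the controls, 643, 545 and 596 at 3 h and 559.6, 529 and 489 at 6 h. In IR20, RR22 stood at 580.5, 718 and 698 in the controls, 368, 392 and 340.2 at 3 h and 522, 460.4 and 471 at 6 h. The lowest arrays of RR22 were those of IR20 at 3 h. The changes of RR22 were in Dagad deshi -0.45 ± 0.11 after 3 h and -0.62 ± 0.11 after 6 h (adjusted p = 0.00283 and 0.000223), and in IR20 -0.83 ± 0.11 after 3 h and -0.44 ± 0.11 after 6 h (adjusted p = 2.59e-05 and 0.00417). Adjusted for the end index, they were 0.01 and -0.17 in Dagad deshi (adjusted p = 0.98 and 0.459), and at 6 h in IR20 -0.17 (adjusted p = 0.211), and only the 3 h fall in IR20 was still called. RR24 changed by 0.45 ± 0.09 (adjusted p = 0.000705) and 0.63 ± 0.09 (adjusted p = 3.3e-05) in Dagad deshi, and, adjusted for the index, by 0.13 and 0.32 (adjusted p = 0.55 and 0.11). In IR20 the changes of RR24 were -0.07 and -0.04 (adjusted p = 0.746 and 0.714).

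RR42, a response regulator outside the 2 main classes, stood in Dagad deshi at 2149, 1977 and 2019 in the controls, 824, 799 and 827 at 3 h and 762, 713 and 744 at 6 h. In IR20, RR42 stood at 1698, 1875 and 1651 in the controls, 1344, 1414 and 1308 at 3 h and 954, 884 and 895 at 6 h. Its replicates were close, and in IR20 the arrays stepped down from control to 3 h to 6 h without overlap. The changes of RR42 were in Dagad deshi -1.31 ± 0.05 after 3 h and -1.45 ± 0.05 after 6 h (adjusted p = 3.3e-11 and 9.7e-12), and in IR20 -0.36 ± 0.05 after 3 h and -0.92 ± 0.05 after 6 h (adjusted p = 8.68e-05 and 2.45e-09). RR41, at an intensity of 7.23 to 10.1 on all arrays, was near the array medians, and although it was called in Dagad deshi its change there was no larger than -0.09.

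**Figure D3:**
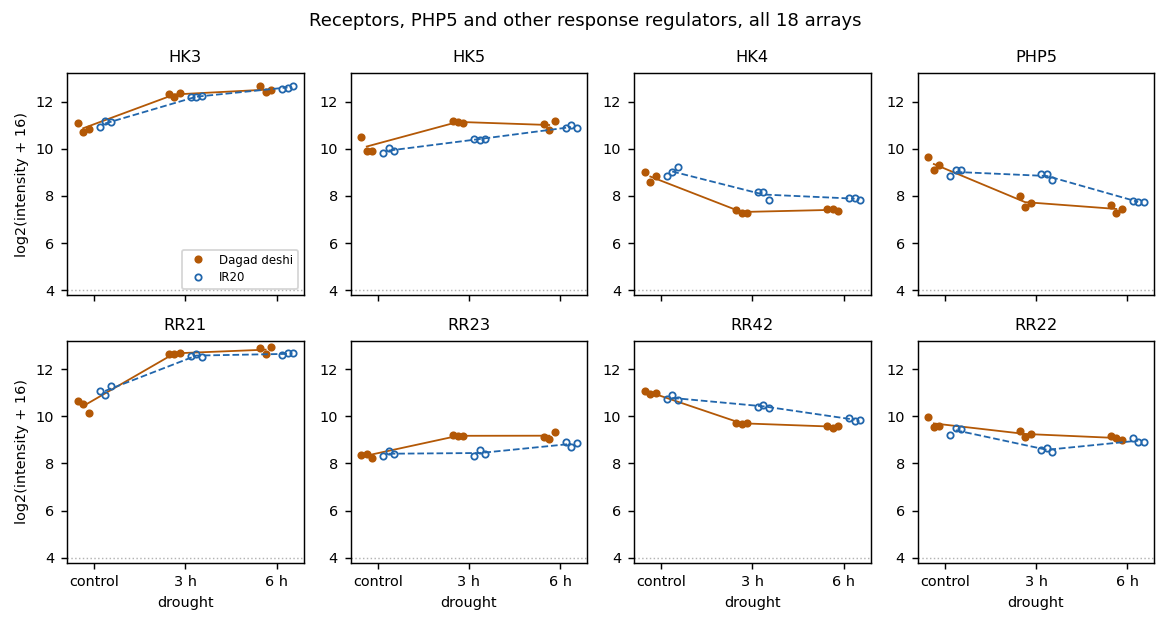
Each panel plots log2(intensity + 16) of 1 gene (vertical axis) in the control, 3 h and 6 h arrays (horizontal axis), with filled points and solid lines for Dagad deshi and open points and dashed lines for IR20. Points are single arrays and lines join the means of 3 arrays. HK3, HK5 and RR21 rose and HK4 and RR42 fell in both cultivars, while PHP5 and RR23 in IR20 differed from the control at 6 h and not at 3 h.

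Of the 5 cytokinin oxidases, 3 rose. CKX4, CKX5 and CKX11 rose in both cultivars at both times, CKX3 fell, and CKX1, at 6.65 to 7.66 on all arrays, was near the array medians. The median change over the 5 genes was 1.17 and 2.08 in Dagad deshi after 3 h and 6 h, and 1.08 and 1.61 in IR20. CKX11, which is known to act on leaf senescence and grain number, had intensities in Dagad deshi of 146, 133 and 182 in the controls, 1238, 1511 and 1761 at 3 h and 723, 922 and 907 at 6 h. In IR20, CKX11 stood at 331, 183 and 265 in the controls, 549, 557 and 548 at 3 h and 834, 818 and 763 at 6 h. The highest arrays of CKX11 were those of Dagad deshi at 3 h, and its 6 h arrays came back towards the level of IR20. The changes of CKX11 were in Dagad deshi 3.16 ± 0.18 after 3 h and 2.36 ± 0.18 after 6 h (adjusted p = 9.01e-10 and 2.21e-08), and in IR20 1.08 ± 0.18 after 3 h and 1.61 ± 0.18 after 6 h (adjusted p = 0.000178 and 2.2e-06).

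CKX4, known from crown root development, stood in Dagad deshi at 80.8, 65.7 and 64.5 in the controls, 478, 511 and 487 at 3 h and 395, 446 and 516 at 6 h. In IR20, CKX4 stood at 57.7, 133 and 77.2 in the controls, 319.8, 339 and 384 at 3 h and 416, 434 and 405 at 6 h. The 6 h arrays of the cultivars overlapped. The changes of CKX4 were in Dagad deshi 2.56 ± 0.19 after 3 h and 2.44 ± 0.19 after 6 h (adjusted p = 1.79e-08 and 2.95e-08), and in IR20 1.85 ± 0.19 after 3 h and 2.11 ± 0.19 after 6 h (adjusted p = 1.7e-06 and 2.29e-07).

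CKX5 stood in Dagad deshi at 51.3, 46.3 and 37.8 in the controls, 139, 114 and 112 at 3 h and 251, 264 and 212 at 6 h. In IR20, CKX5 stood at 49.0, 57.0 and 36.7 in the controls, 332, 269 and 320.0 at 3 h and 200.4, 192 and 209 at 6 h. The order of the times was opposite in the cultivars, with the 6 h arrays highest in Dagad deshi and the 3 h arrays highest in IR20. The changes of CKX5 were in Dagad deshi 1.17 ± 0.14 after 3 h and 2.08 ± 0.14 after 6 h (adjusted p = 3.47e-06 and 5.48e-09), and in IR20 2.35 ± 0.14 after 3 h and 1.78 ± 0.14 after 6 h (adjusted p = 5.32e-09 and 5.12e-08).

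CKX3 was dim in the controls, at 36.1, 36.4 and 15.5 in Dagad deshi and 19.6, 25.3 and 32.8 in IR20. The 12 drought arrays lay between 5.84 and 8.41, so that the changes of CKX3, in Dagad deshi -0.99 ± 0.15 after 3 h and -1.0 ± 0.15 after 6 h (adjusted p = 4.93e-05 and 4.4e-05), and in IR20 -0.86 ± 0.15 after 3 h and -0.90 ± 0.15 after 6 h (adjusted p = 0.000335 and 0.000149), are lower bounds of its fall. Adjusted for the index, the calls in Dagad deshi were lost, at -0.69 and -0.71 (adjusted p = 0.0725 and 0.0634). Those of CKX4, CKX5 and CKX11 were kept after this adjustment in each cultivar and at each time, and the changes of CKX11 were then 2.69 and 1.89 in Dagad deshi and 0.86 and 1.33 in IR20. Here too the adjusted fit cannot separate drought from the index.

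The enzymes that release active cytokinin moved in both directions. Of 8 LOG-type genes, 5 rose and 2 fell in Dagad deshi at both times, 6 rose and 2 fell at 3 h in IR20, and 5 rose and 3 fell at 6 h there. The median change was 0.71 and 0.84 in Dagad deshi and 0.66 and 0.68 in IR20. LOGL7 rose most at 3 h, in both cultivars, while at 6 h LOGL9 rose most in Dagad deshi and LOGL5 in IR20. LOGL7 had intensities in Dagad deshi of 118, 149 and 132 in the controls, 972, 821 and 880.4 at 3 h and 517, 573 and 473 at 6 h. In IR20, LOGL7 stood at 246, 156 and 249.6 in the controls, 700.3, 759 and 668 at 3 h and 542, 492 and 499 at 6 h. The 3 h arrays were the highest in both cultivars. The changes of LOGL7 were in Dagad deshi 2.61 ± 0.14 after 3 h and 1.85 ± 0.14 after 6 h (adjusted p = 6.46e-10 and 2.75e-08), and in IR20 1.66 ± 0.14 after 3 h and 1.20 ± 0.14 after 6 h (adjusted p = 2.73e-07 and 4.49e-06).

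LOGL9 stood in Dagad deshi at 92.1, 34.8 and 36.5 in the controls, 263, 249 and 254 at 3 h and 314, 334 and 234 at 6 h. In IR20, LOGL9 stood at 147, 109 and 129 in the controls, 351, 356 and 300.1 at 3 h and 240.2, 224 and 187 at 6 h. Control replicate 1 of Dagad deshi stood well above the other two controls, yet below each of the drought arrays. The changes of LOGL9 were in Dagad deshi 2.04 ± 0.23 after 3 h and 2.22 ± 0.23 after 6 h (adjusted p = 2.37e-06 and 9.36e-07), and in IR20 1.29 ± 0.23 after 3 h and 0.69 ± 0.23 after 6 h (adjusted p = 0.00041 and 0.0247). The 6 h change in IR20 was no longer called without IR20 control replicate 2 or 3 or IR20 6 h replicate 1 or 2, with values from 0.59 to 0.70 (adjusted p = 0.052 to 0.0881).

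LOGL10 was the main LOG-type gene to fall. In Dagad deshi, LOGL10 stood at 585, 607 and 490.3 in the controls, 146, 127 and 153 at 3 h and 169, 149 and 152 at 6 h. In IR20, LOGL10 stood at 272, 303 and 304 in the controls, 204, 183 and 164 at 3 h and 79.8, 59.3 and 36.8 at 6 h. Dagad deshi had reached its low level by 3 h, and in IR20 the 6 h arrays lay far below the 3 h arrays. The changes of LOGL10 were in Dagad deshi -1.86 ± 0.17 after 3 h and -1.74 ± 0.17 after 6 h (adjusted p = 1.79e-07 and 3.76e-07), and in IR20 -0.64 ± 0.17 after 3 h and -2.09 ± 0.17 after 6 h (adjusted p = 0.00741 and 7.39e-08). The 3 h change in IR20 was -0.48 after adjustment for the index (adjusted p = 0.0755).

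LOGL5 rose by about the same amount in all 4 comparisons. In Dagad deshi, LOGL5 stood at 248, 252 and 214 in the controls, 748, 687 and 647 at 3 h and 637, 714 and 604 at 6 h. In IR20, LOGL5 stood at 133, 205 and 84.7 in the controls, 362, 381 and 420.4 at 3 h and 463, 343 and 354 at 6 h. The arrays of Dagad deshi were the brighter ones in every condition. The changes of LOGL5 were in Dagad deshi 1.48 ± 0.21 after 3 h and 1.39 ± 0.21 after 6 h (adjusted p = 1.87e-05 and 3.41e-05), and in IR20 1.43 ± 0.21 after 3 h and 1.42 ± 0.21 after 6 h (adjusted p = 5.14e-05 and 3.77e-05).

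LOG, LOGL1, LOGL3 and LOGL6 are the other members of the family. LOG itself, which is known for keeping the shoot meristem active, changed by 0.24 ± 0.12 (adjusted p = 0.0819) at 3 h in Dagad deshi, and rose by 0.88 at 6 h there and by 0.63 and 0.66 in IR20. The 3 h change was called without Dagad deshi control replicate 2, IR20 control replicate 1 or 2, or Dagad deshi 3 h replicate 2, with values from 0.24 to 0.32 (adjusted p = 0.0229 to 0.0496). LOGL3 rose in all 4 comparisons, by 0.78 and 0.80 in Dagad deshi and by 0.69 and 1.16 in IR20. LOGL6, at 5.83 to 40.4 on all arrays, changed by -0.96 and -0.95 in Dagad deshi and by -0.42 and -0.41 in IR20, the last no longer called after adjustment for the index (-0.27, adjusted p = 0.0687). The means of LOGL6 in the drought groups lay between 4.51 and 4.67 on the log2 scale, near the array medians. Its changes are thus lower bounds of its fall. LOGL1, whose probe set can cross-hybridise, rose by 0.65 ± 0.10 (adjusted p = 5.63e-05) and 0.38 ± 0.10 (adjusted p = 0.00739) at 3 h in Dagad deshi and IR20. At 6 h LOGL1 changed by -0.02 ± 0.10 (adjusted p = 0.872) in Dagad deshi and by -0.37 ± 0.10 (adjusted p = 0.00688) in IR20, where adjustment for the index left -0.32 (adjusted p = 0.0664).

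**Figure D4:**
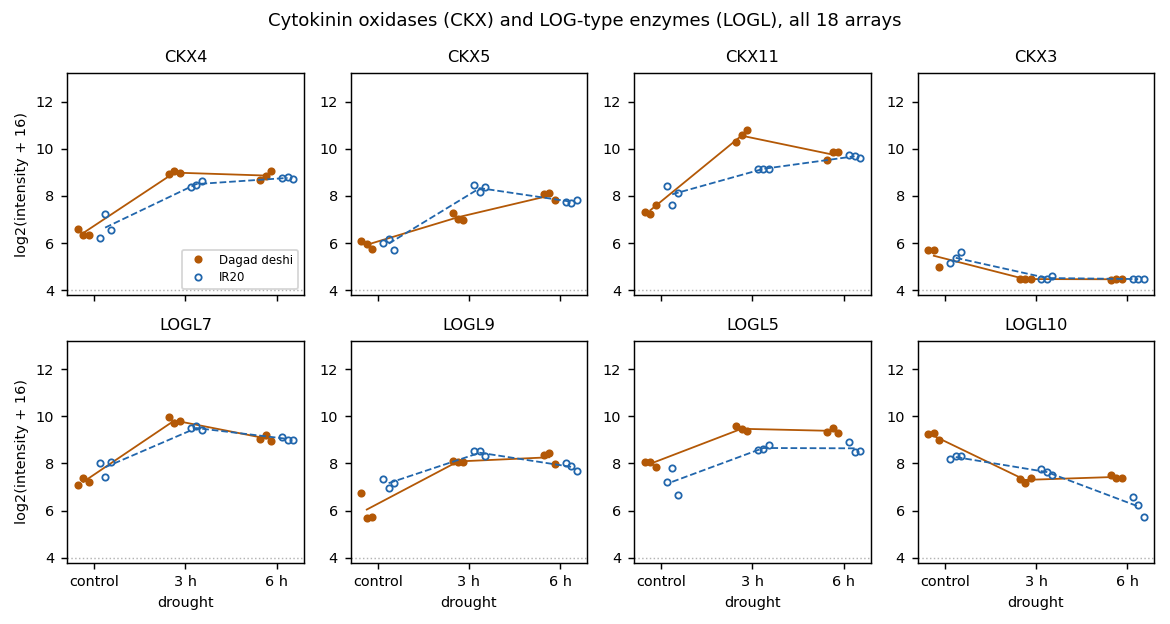
Each panel plots log2(intensity + 16) of 1 gene (vertical axis) in the control, 3 h and 6 h arrays (horizontal axis), with filled points and solid lines for Dagad deshi and open points and dashed lines for IR20. Points are single arrays, lines join the means of 3 arrays, and the dotted line at 4 is the floor of the scale. CKX4, CKX5, CKX11, LOGL5, LOGL7 and LOGL9 rose, CKX3 and LOGL10 fell, and CKX5 and CKX11 took opposite courses from 3 h to 6 h in the cultivars.

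Between 3 h and 6 h of drought no control array enters the difference, and the end index of the drought arrays lay in the narrower range given above. In IR20 the index lay between 2.79 and 2.89 at 3 h and between 1.82 and 3.19 at 6 h. In Dagad deshi it lay between 1.80 and 2.14 at 3 h and between 1.81 and 2.15 at 6 h. Its part in the changes from 3 h to 6 h, here and below, was not tested. In Dagad deshi 3 genes rose and 3 fell, where 11.5% of all probe sets were called (5.33% higher and 6.15% lower). The genes that rose were CKX5 by 0.91 ± 0.14 (adjusted p = 0.000518), LOG by 0.65 ± 0.12 (adjusted p = 0.00195) and RR6 by 0.23 ± 0.07 (adjusted p = 0.0373), and those that fell were CKX11 with -0.80 ± 0.18 (adjusted p = 0.00812), LOGL7 with -0.76 ± 0.14 (adjusted p = 0.00265) and LOGL1 with -0.67 ± 0.10 (adjusted p = 0.00049). LOG stood in Dagad deshi at 817, 647 and 719 at 3 h and 1159, 1171 and 1099 at 6 h, without overlap. The call of RR6 was lost without any 1 of Dagad deshi 3 h replicate 1, 2 or 3, IR20 3 h replicate 3, or Dagad deshi 6 h replicate 2 or 3, with values from 0.16 to 0.25 (adjusted p = 0.0519 to 0.17).

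In IR20 6 genes rose and 10 fell from 3 h to 6 h, where 25.5% of all probe sets were called (10.9% higher and 14.6% lower). The largest falls were those of LOGL10, with -1.45 ± 0.17 (adjusted p = 1.35e-05), RR9, with -1.37 ± 0.09 (adjusted p = 7.43e-08), PHP5, with -1.10 ± 0.15 (adjusted p = 4.97e-05), RR1, with -0.75 ± 0.13 (adjusted p = 0.000519), and LOGL1, with -0.75 ± 0.10 (adjusted p = 5.36e-05). RR4 followed with -0.58 ± 0.07 (adjusted p = 3.02e-05), from 467, 510.2 and 526 at 3 h to 349, 336 and 306 at 6 h. LOGL1 stood in IR20 at 1872, 1945 and 1799 at 3 h and 1133, 1033 and 1147 at 6 h. None of these genes had overlapping 3 h and 6 h arrays. CKX5 fell by 0.57 on the log2 scale (adjusted p = 0.00609), and HK3, HK5, RR22, RR23, LOGL3 and CKX11 rose by between 0.39 and 0.53. Of these 6, CKX11 (adjusted p = 0.0402) was no longer called without Dagad deshi 3 h replicate 2 or any 1 of the 6 drought arrays of IR20 (adjusted p = 0.0526 to 0.103), LOGL3 (adjusted p = 0.0325) without any 1 of these 6 (0.0561 to 0.1), and RR22 (adjusted p = 0.018) without IR20 3 h replicate 3 or IR20 6 h replicate 1 (0.0743 to 0.077).

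In unstressed seedlings, 7 genes were higher and 10 lower in IR20 than in Dagad deshi, where 53.1% of all probe sets were called (17.2% higher and 35.9% lower). RR5 differed most, at -1.32 ± 0.13 (adjusted p = 6.11e-06), with the lowest control array of Dagad deshi at 53.3 and the highest of IR20 at 25.0. LOGL9 was higher in IR20 by 1.12 ± 0.23 (adjusted p = 0.00172), with all IR20 controls above all Dagad deshi controls. LOGL10 and RR2 were lower in IR20, by -0.90 ± 0.17 (adjusted p = 0.000938) and -0.82 ± 0.12 (adjusted p = 0.000185). A fit on the 6 control arrays alone called 5 genes in place of 17, RR2, RR5, RR9, LOGL6 and LOGL10, and LOGL9 then had an adjusted p of 0.0895. The end index was 6.72 ± 1.87 (SD, n = 3) in Dagad deshi and 5.11 ± 1.53 (SD, n = 3) in IR20 controls. Of the 7 root genes, 3 were called higher in IR20 controls, AMT1-2 by 1.53, LSI2 by 1.37 and LSI1 by 1.26, and 4 were not called, NAS1 at 0.68, NRT2.2 at 0.17, IRT1 at 0.01 and NAS2 at -0.24. The part of the index or of the root genes in these differences was not tested.

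The cultivars were also compared at each drought time. At 3 h their end indices did not overlap, at 2.79 to 2.89 in IR20 and 1.80 to 2.14 in Dagad deshi. The part of the index in these differences was not tested. At 3 h, 8 genes were higher and 6 lower in IR20, where 34.2% of all probe sets were called (18.1% higher and 16% lower). RR9 was higher in IR20 by 2.15 ± 0.09 (adjusted p = 2.54e-10), CKX5 by 1.23 ± 0.14 (adjusted p = 5.21e-06) and PHP5 by 1.11 ± 0.15 (adjusted p = 2.54e-05), and CKX11 was lower, at -1.41 ± 0.18 (adjusted p = 1.69e-05). At 6 h, 3 genes were higher and 6 lower in IR20, where 22.1% of all probe sets were called (10.5% higher and 11.6% lower). LOGL10 was lower in IR20 at 6 h by -1.25 ± 0.17 (adjusted p = 6.27e-05), RR6 was lower by -0.93 ± 0.07 (adjusted p = 9.77e-08) and RR9 was higher by 0.81 ± 0.09 (adjusted p = 1.21e-05). RR6 stood at 6 h at 2768, 3178 and 3427 in Dagad deshi and 1655, 1675 and 1563 in IR20. A fit on the 3 h arrays alone also called CKX4, LOGL1, LOGL3, LOGL7 and LOGL9 between the cultivars. One on the 6 h arrays alone no longer called RR23 and RR24. A gene not called here is thus not shown to be equal in the cultivars.

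The change from control itself differed between the cultivars for 20 genes at 3 h, 13 in the positive direction, which is a higher change in IR20, and 7 in the negative, where 48.2% of all probe sets were called (31.5% positive and 16.7% negative). At 6 h it differed for 16 genes, 9 positive and 7 negative, where 43.1% were called (28.5% positive and 14.6% negative). For the type-A regulators this was a smaller fall in IR20 at 3 h. The difference of the changes was 1.72 ± 0.13 (adjusted p = 2.24e-07) for RR9, 1.55 ± 0.18 (adjusted p = 9.25e-06) for RR2, 1.33 ± 0.18 (adjusted p = 5.92e-05) for RR1 and 1.32 ± 0.19 (adjusted p = 8.32e-05) for RR5. At 6 h the difference was 1.31 ± 0.19 (adjusted p = 0.000177) for RR5, 1.18 ± 0.18 (adjusted p = 0.000215) for RR2 and 0.91 ± 0.18 (adjusted p = 0.00228) for RR1. For RR5, which was at the floor in all drought arrays, it equals the difference between the controls with its sign turned. PHP5 and LOGL10 also fell less in IR20 at 3 h, by 1.44 ± 0.21 (adjusted p = 7.81e-05) and 1.23 ± 0.24 (adjusted p = 0.000976). CKX5 rose more in IR20 at 3 h, by 1.18 ± 0.20 (adjusted p = 0.000271), and CKX11 rose less, with -2.08 ± 0.25 (adjusted p = 1.64e-05). At 6 h LOGL9, RR21 and RR6 rose less in IR20 or did not rise, with -1.52 ± 0.33 (adjusted p = 0.00336), -0.82 ± 0.17 (adjusted p = 0.00289) and -0.79 ± 0.09 (adjusted p = 2.69e-05). Between the controls, RR1, LOGL9 and RR21 differed by -0.80, 1.12 and 0.64, which enters these differences with its sign turned. In the limma fit on the control arrays alone, these control differences had an adjusted p of 0.05, 0.0895 and 0.0721. RR6 differed between the controls by -0.13 (adjusted p = 0.105). LOGL10 and RR2 were lower in IR20 controls, as given above, which enters their differences in the same way. At 3 h itself, LOGL10 differed between the cultivars by 0.33 and was not called (adjusted p = 0.164). At 6 h itself, LOGL9 differed between the cultivars by -0.40 (adjusted p = 0.296) and RR2 by 0.35 (adjusted p = 0.0561). None of the 29 genes was called in opposite directions in the cultivars at the same time.

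**Figure D5:**
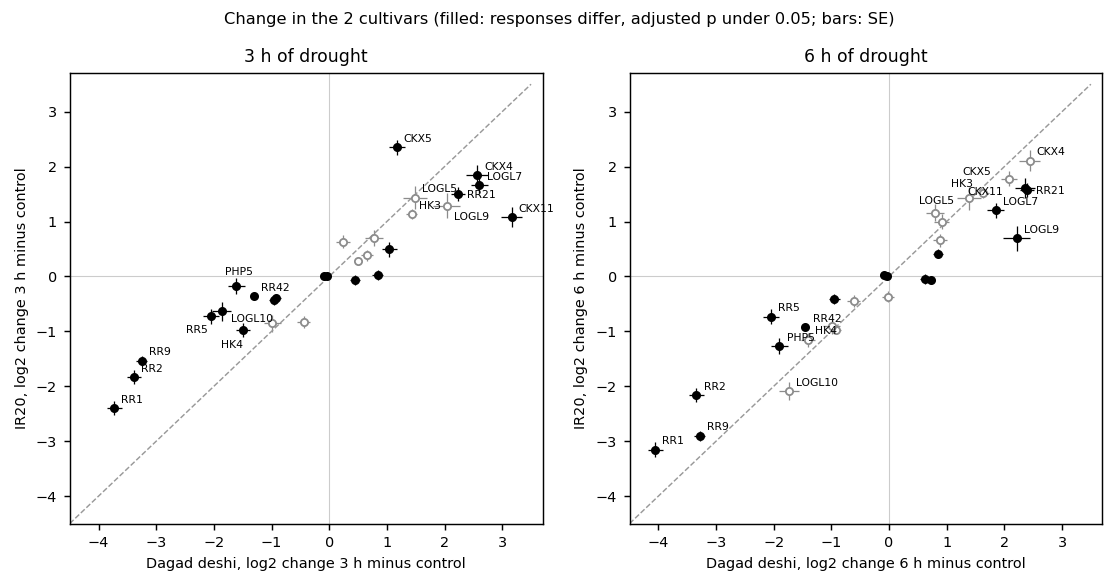
Each point is 1 of the 29 tested genes, with its log2 change from control in Dagad deshi (horizontal axis) and IR20 (vertical axis) at 3 h (left) and 6 h (right), bars for the SE and a dashed line where both changes are equal. Filled points differ between the cultivars at an adjusted p under 0.05, and genes with a change over 1.3 in either direction are named. The falling type-A regulators RR1, RR2 and RR9 lie above the line at both times, and CKX5 and CKX11 lie on opposite sides of it at 3 h.

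The course from 3 h to 6 h also differed between the cultivars, a comparison added after the values had been seen. It differed for 11 genes, 3 positive and 8 negative, where 14.3% of all probe sets were called (6.25% positive and 8.01% negative). The difference, IR20 minus Dagad deshi, was -1.58 ± 0.24 (adjusted p = 0.000409) for LOGL10, -1.49 ± 0.20 (adjusted p = 0.000139) for CKX5, -1.33 ± 0.13 (adjusted p = 1.07e-05) for RR9 and 1.34 ± 0.25 (adjusted p = 0.00221) for CKX11. CKX5 and CKX11 were called in opposite directions, since CKX5 rose from 3 h to 6 h in Dagad deshi and fell in IR20, and CKX11 fell in Dagad deshi and rose in IR20. RR6 did likewise, rising in Dagad deshi and changing by -0.34 ± 0.07 (adjusted p = 0.00122) in IR20, a difference of -0.57 ± 0.09 (adjusted p = 0.000779). The calls of CKX11 in IR20 and of RR6 in Dagad deshi are those that single arrays undo, as given above.

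KNOX homeobox genes were read as a further list. Class I KNOX genes are meristem regulators known to raise cytokinin synthesis, which is not known of the class II genes HOS58, HOS59, HOS66 and OSH45 in the list. Of 9 tested, 1 rose and 4 fell at 3 h in Dagad deshi, beside 23.6% higher and 47.3% lower over all probe sets, and 1 rose and 6 fell at 6 h, beside 24.7% and 45.7%. In IR20 none rose and 5 fell at 3 h, beside 14.9% and 21.9%, and 1 rose and 8 fell at 6 h, beside 20.4% and 25.5%. At 3 h in Dagad deshi the called share of the list was thus below the 70.9% of all probe sets. OSH43, at 6.77 to 8.46 on all arrays, and HOS13, at 6.58 to 12.5, were near the array medians. OSH43 was the gene that rose at 6 h in IR20, from a mean log2 value of 4.52 to 4.58. The medians of the list lay between -0.48 and -0.10. OSH1, the rice counterpart of a shoot meristem gene, changed by in Dagad deshi -1.21 ± 0.24 after 3 h and -1.32 ± 0.24 after 6 h (adjusted p = 6e-04 and 0.00029), and in IR20 -0.76 ± 0.24 after 3 h and -0.86 ± 0.24 after 6 h (adjusted p = 0.0237 and 0.00949). OSH6 went opposite ways, with 0.56 and 0.60 in Dagad deshi (adjusted p = 0.015 and 0.0107) and -1.04 and -0.78 in IR20 (adjusted p = 0.000338 and 0.00248). OSH45, of class II, fell in each comparison, with changes of -0.53 and -0.69 in Dagad deshi and -0.20 and -0.39 in IR20 (adjusted p = 1.26e-05, 7.76e-07, 0.0413 and 0.000335).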

How the data were processed

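Total RNA of whole seedlings, extracted with Trizol and biotin-labelled by an Affymetrix 3' IVT protocol, was hybridised to Affymetrix rice arrays, 1 array per sample. The values deposited by the authors are intensities on a linear scale, 1 per probe set and array. The submitters' processing notes name GCOS, and the normalization is not given in the sources used here. Precision is limited by the 3 arrays in each of 6 groups.

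Gene names came from the platform annotation and were updated through the RefSeq gene table, and a probe set was used only where it was annotated to 1 gene. For a gene with several, the one of highest mean was used. The 123 control probe sets were left out, 16 was added to each intensity before taking log2, and the 57258 other probe sets were filtered at the 30th percentile of their mean log2 value (4.42), which left 40080. A mean for each group was estimated in R 4.3.3 with its limma package, version 3.58.1, whose empirical Bayes step let the prior variance follow the mean level, and p-values were adjusted by Benjamini-Hochberg over all tested probe sets within each comparison. The script was tested on simulated data. Alternatives were quantile normalization, median centring, added values of 1 and 64, no filter or one at the 60th percentile, a constant variance prior, the replicate number as a block, no _s_at or _x_at probe sets, adjustment for the end index, leaving out the control array of highest index in each cultivar, only the groups compared, and leaving out each array in turn. The test of the cultivar difference in the 6 h minus 3 h change was added after seeing the data.

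The member genes and lists were chosen with earlier results of these data known. Values in all arrays are given, within each class, for up to 4 genes called against control, and for up to 6 genes in each further drought comparison and 4 between the controls, by size of change. Genes of further lists are named by size, up to 3 per list. For RR4 and LOGL1, values are given for the times compared.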

Additional observations from a re-analysis of the deposited data

Results flagged for a closer look

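The results here are differences between the cultivars under the same contrast, each past an adjusted p of 0.05 in the limma test of the difference itself, given as the change in IR20 minus the change in Dagad deshi on the log2(intensity + 16) scale. The comparisons at 3 h and 6 h share the control arrays of both cultivars. A difference between the controls thus enters both with its sign turned. No explanation was tested for any of them.

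At 3 h of drought against control, 13 differences were positive. Those of response regulators were 1.72 for RR9, 1.55 for RR2, 1.33 for RR1, 1.32 for RR5, 0.95 for RR42, 0.52 for RR4 and 0.10 for RR41. The others were 1.44 for PHP5, 1.23 for LOGL10, 1.18 for CKX5, 0.53 for LOGL6, 0.52 for HK4 and 0.04 for CKX1. RR41 and CKX1 were near the array medians in all groups. LOGL6 was near them in all drought groups, and its mean log2 value in the controls was 5.62 in Dagad deshi and 4.94 in IR20. The 7 negative differences were -2.08 for CKX11, -0.94 for LOGL7, -0.81 for RR23, -0.73 for RR21, -0.72 for CKX4, -0.55 for HK5 and -0.52 for RR24. Of these 20, 4 lost their call when 1 array was left out. The call was lost for CKX1 without any 1 of Dagad deshi control replicate 1 or 3, IR20 control replicate 1 or 3, Dagad deshi 3 h replicate 3, IR20 3 h replicate 1 or 3 (0.03 to 0.04, adjusted p = 0.0509 to 0.0757). It was lost for HK4 without any 1 of Dagad deshi control replicate 1, IR20 control replicate 1, Dagad deshi 3 h replicate 3, IR20 3 h replicate 1 or 2 (0.43 to 0.50, adjusted p = 0.0511 to 0.0656). It was likewise lost for CKX4 without any 1 of Dagad deshi control replicate 2 or 3, Dagad deshi 3 h replicate 1, 2 or 3, IR20 3 h replicate 1 or 2 (-0.73 to -0.66, adjusted p = 0.0588 to 0.0852) and for HK5 without any 1 of Dagad deshi control replicate 2 or 3, IR20 control replicate 2 or 3, Dagad deshi 3 h replicate 1 or 2, IR20 3 h replicate 1, 2 or 3 (-0.56 to -0.45, adjusted p = 0.0511 to 0.0707). The second probe set of HK5 gave -1.30 for the 3 h difference (adjusted p = 0.00213). After adjustment for the end index of the control transcripts, the differences of RR24 (-0.35, adjusted p = 0.0546), HK4 (0.43, adjusted p = 0.122), RR41 (0.06, adjusted p = 0.0953) and CKX1 (0.03, adjusted p = 0.166) were not called.

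At 6 h against control, 9 differences were positive, 1.31 for RR5, 1.18 for RR2, 0.91 for RR1, 0.63 for PHP5, 0.54 for LOGL6, 0.53 for RR42, 0.38 for RR9, 0.11 for RR41 and 0.05 for CKX1. The 7 negative differences were -1.52 for LOGL9, -0.82 for RR21, -0.79 for RR6, -0.75 for CKX11, -0.67 for RR24, -0.65 for LOGL7 and -0.43 for RR23. Calls were lost when 1 array was left out for 4 genes. These were RR9 without any 1 of Dagad deshi control replicate 2 or 3, IR20 control replicate 1 or 2, Dagad deshi 6 h replicate 1 or 3, IR20 6 h replicate 1 (0.29 to 0.39, adjusted p = 0.0502 to 0.0776) and CKX11 without any 1 of Dagad deshi control replicate 2, IR20 control replicate 1 or 3, Dagad deshi 6 h replicate 2 or 3, IR20 6 h replicate 3 (-0.72 to -0.56, adjusted p = 0.0564 to 0.0716). The others were PHP5 without any 1 of Dagad deshi control replicate 1, IR20 control replicate 1, Dagad deshi 6 h replicate 2 (0.49 to 0.55, adjusted p = 0.0501 to 0.0638) and LOGL7 without any 1 of IR20 control replicate 1 or 3 (-0.55 to -0.54, adjusted p = 0.0533 to 0.0544). After the same adjustment, LOGL7 (-0.45, adjusted p = 0.0744), CKX11 (-0.56, adjusted p = 0.105), PHP5 (0.47, adjusted p = 0.0914) and CKX1 (0.04, adjusted p = 0.0555) were not called.

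In the change from 3 h to 6 h of drought, 8 differences were negative, -1.58 for LOGL10, -1.49 for CKX5, -1.33 for RR9, -0.81 for PHP5, -0.62 for LOG, -0.58 for RR4, -0.57 for RR6 and -0.42 for RR42. The 3 positive differences were 1.34 for CKX11, 0.64 for HK5 and 0.56 for RR22. Of these 11, 3 lost their call when 1 array was left out. This was so for HK5 without any 1 of Dagad deshi 3 h replicate 1, 2 or 3, IR20 3 h replicate 1, 2 or 3, Dagad deshi 6 h replicate 1 or 2, IR20 6 h replicate 1, 2 or 3 (0.53 to 0.67, adjusted p = 0.0618 to 0.0985). It was also so for RR22 without any 1 of Dagad deshi 3 h replicate 1 or 3, IR20 3 h replicate 1 or 3, Dagad deshi 6 h replicate 3, IR20 6 h replicate 1 (0.50 to 0.56, adjusted p = 0.0557 to 0.0728) and for LOG without Dagad deshi 3 h replicate 2 (-0.54, adjusted p = 0.0545). The second probe set of HK5 gave 0.65 for its difference and was not called (adjusted p = 0.167).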

How the results depend on the processing

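Of 4080 values recomputed under the alternatives other than leaving out an array, 3924 kept their direction where called and their side of the threshold, 74 became called, 76 were no longer called and 6 reversed. Leaving out each of the 18 arrays in turn gave 6264 values, of which 57 became called, 116 were no longer called and none reversed from a called value. Without a call on either side, 48 and 67 of these values changed sign. The reversed values were those of CKX1 with each array centred on its median, 0.0013 and 0.0014 at 3 h and 6 h in Dagad deshi, 0.0011 between the controls and -0.0017 for the 3 h difference in response, the 3 h change of RR22 in Dagad deshi adjusted for the end index, 0.0082, and the difference of HK5 between the controls, 0.66 without _s_at and _x_at probe sets. The cause was not tested, except that for HK5 another probe set was then read. Between the controls, a fit on only the groups compared called 5 genes in place of 17, and all 5 were among the 17. That fit holds fewer arrays and takes its spread from the controls alone, which had the larger median SD. The counts of called genes in the other comparisons stayed within 1.5 times under every alternative run.

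Arrays of the same replicate number did not deviate together (r from -0.551 to 0.353, median 0.029), so the numbers were not taken as pairs. With the replicate block, 28 and 28 genes were called in Dagad deshi and 24 and 25 in IR20 against control, 5 and 18 between 3 h and 6 h, 17 between the controls, 14 and 10 between the cultivars at 3 h and 6 h, and 21 and 16 in the differences in response.

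Intensities near the array medians, as for CKX1, RR41, RR33, RR5, CKX3 and LOGL6 under drought, and RR1 at 6 h, give no order and only bounds on change.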
